A study of Mus musculus with 12 samples.

Results

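The transcripts of 9 genes that stand upstream of cell-cycle entry were followed in 3T3-L1 fibroblasts. These were the 3 D-type cyclins (Ccnd1, Ccnd2, and Ccnd3), the CDK inhibitors Cdkn1a, Cdkn1b, Cdkn1c, and Cdkn2c, and the regulators Mdm2 and Myc. They were chosen by gene symbol and not by any measured value, and are 9 of the 56941 genes in the count table. Of the 9, 8 passed the filter on low counts, which left 14810 tested genes, and Cdkn1c did not. 3T3-L1 is an established mouse embryonic fibroblast line that can differentiate into adipocytes, labeled here as wild-type fibroblasts, so each group is the same line and not primary dermal cells. The 4 conditions had 3 libraries each. Control cells received vehicle, IL-4/13 cells received IL-4 and IL-13 (50 ng/mL of each), Inf cells received IL-1β (0.5 ng/mL), TNF-α (20 ng/mL), and IL-17A (50 ng/mL), and IL-4/13 + Inf cells received all 5 cytokines, in each case for 24 hours. The study asked how type 2 cytokines alter the response of fibroblasts to inflammatory cytokines.

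D-type cyclins bind CDK4 and CDK6, and the resulting kinases phosphorylate the retinoblastoma protein, which releases E2F factors and lets a cell leave G1. The INK4 inhibitors, such as p18 (Cdkn2c), bind CDK4 and CDK6 directly, whereas the Cip/Kip inhibitors p21 (Cdkn1a), p27 (Cdkn1b), and p57 (Cdkn1c) bind cyclin-CDK complexes. Mdm2 is the ubiquitin ligase that degrades p53 and is itself a p53 target gene, and Myc is a transcription factor that promotes growth, ribosome production, and G1 progression.

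The D cyclins share a short docking motif, and so do the Cip/Kip inhibitors. Near the start of each D cyclin's coding sequence lie the codons of LxCxE, the motif that docks on the retinoblastoma protein. They are printed in capitals in the first bases of the 3 coding sequences (GENCODE M21, GRCm38, read 5′ to 3′ on the coding strand).
Ccnd1: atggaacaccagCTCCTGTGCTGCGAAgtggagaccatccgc
Ccnd2: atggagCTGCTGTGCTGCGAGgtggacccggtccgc
Ccnd3: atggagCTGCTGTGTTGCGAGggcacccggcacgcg

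The aligned coding sequences were 70.4% identical between Ccnd1 and Ccnd2, 65.8% between Ccnd1 and Ccnd3, and 68.8% between Ccnd2 and Ccnd3. No 50-base stretch of the longest Ccnd1 or Ccnd2 transcript occurred in a transcript of another gene, whereas 2.47% of those of Ccnd3 also occurred in its pseudogene Ccnd3-ps, with which reads could be shared. In the Cip/Kip inhibitors the capitals mark the codons of RxLF, the motif that docks on the cyclin, with 15 bases on either side.
Cdkn1a: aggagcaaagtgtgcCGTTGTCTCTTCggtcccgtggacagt
Cdkn1b: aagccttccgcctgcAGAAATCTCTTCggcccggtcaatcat
Cdkn1c: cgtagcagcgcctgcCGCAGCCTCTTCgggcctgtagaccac
The same test found no shared 50-base stretch in the 4 inhibitors or in Myc, and 0.258% of those of Mdm2 were shared with other genes.

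Total counts ranged from 13446005 to 20775769 per library. Levels are given in CPM, which are counts scaled to the library size with TMM factors. All 10 fibroblast markers examined passed the filter, and their summed level was 16670 to 19430 CPM in control, 14330 to 15120 CPM with IL-4/13, 13830 to 15260 CPM with Inf, and 11770 to 12140 CPM with IL-4/13 + Inf. Of 7 adipocyte markers, 6 (Adipoq, Cfd, Cidec, Lep, Plin1, and Retn) had 3 or fewer counts in every library. The remaining one, Fabp4, carried the adipocyte sum of 10.7 to 12.3 CPM in control, 13.6 to 20.4 CPM with IL-4/13, 28.8 to 32.3 CPM with Inf, and 17.5 to 21.3 CPM with IL-4/13 + Inf. The macrophage markers Adgre1, Itgam, and Tyrobp also had 3 or fewer counts, although the 8-gene list summed to 20.2 to 23.7 CPM in control, 23.5 to 26.0 CPM with IL-4/13, 44.7 to 59.6 CPM with Inf, and 43.3 to 49.5 CPM with IL-4/13 + Inf. Summed endothelial markers were at most 2.19 CPM. Summed epithelial markers were 4.90 to 6.12 CPM in control, 8.25 to 9.78 CPM with IL-4/13, 2.61 to 3.701 CPM with Inf, and 3.24 to 4.91 CPM with IL-4/13 + Inf. The fibroblast, adipocyte, macrophage, and epithelial sums thus differed between conditions, and their part in the results on single genes was not tested.

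A gene was called where its Benjamini-Hochberg adjusted p in edgeR's quasi-likelihood fit of all tested genes was below 0.05 and its log2 fold change was beyond 0.25 in either direction (the fold threshold). Across the 8 tested genes, Inf against control called 0 up and 2 down (Ccnd1 and Ccnd2, which fell), where 16.3% of all tested genes were called up and 15.3% down. IL-4/13 against control called 0 up and 0 down, with 2.78% and 2.57% of all genes called, and DESeq2 also called 0, although 4 had an unadjusted p below 0.05. On the adjusted p alone, 0 were higher and 2 lower in IL-4/13 (Ccnd2 and Cdkn1b), against 4.50% and 4.10% of all genes. IL-4/13 + Inf against Inf called 2 up (Ccnd1 and Myc) and 0 down, where 7.55% and 7.00% of all genes were called. On the adjusted p alone that comparison gave 4 higher and 2 lower, against 12.3% and 10.1% of all genes. Inf against control on the adjusted p alone gave 2 higher (Ccnd3 and Mdm2) and 2 lower, against 20.3% and 21.9% of all genes.

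IL-4/13 + Inf against control called 2 up (Cdkn2c and Myc) and 3 down (Ccnd1, Ccnd2, and Cdkn1b), where 13.4% and 11.5% of all genes were called. On the adjusted p alone the counts were 4 and 3, against 17.2% and 16.0%. The interaction called 2 up (Ccnd1 and Ccnd2) and 0 down, where 1.52% of all genes were called up and 1.59% down. On the adjusted p alone it gave 3 higher, with Myc added, and 0 lower, against 1.72% and 1.67% of all genes. The median log2 fold change of all tested genes was within 0.01 of 0 in each comparison. In bulk RNA, fewer cells with a transcript and less of it per cell cannot be told apart. The 3 libraries per group were not labeled as separate cultures, and the p-values therefore measure the spread between libraries, which may be technical.

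**Figure D1:**
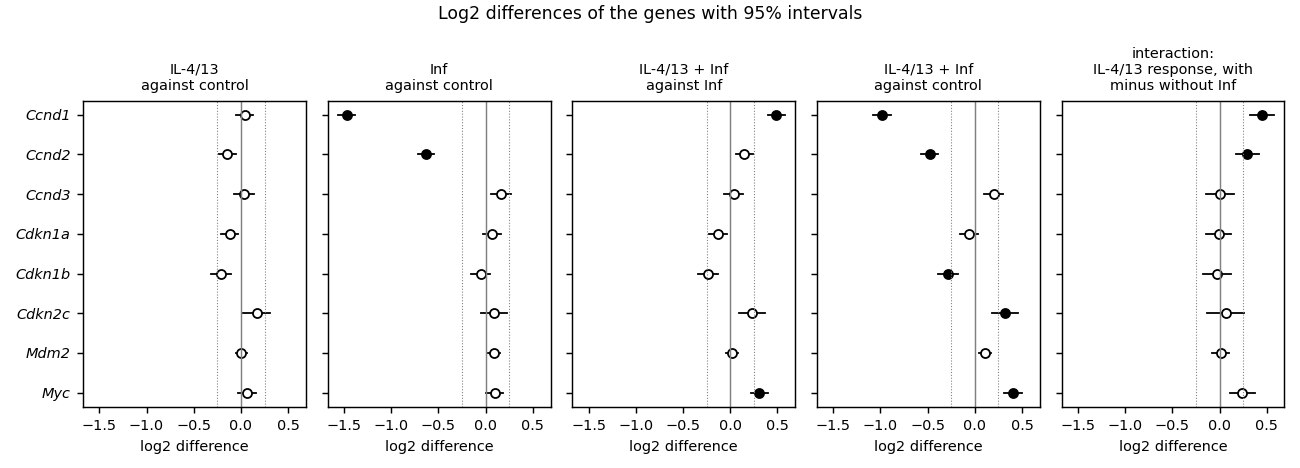
Log2 differences of the 8 tested genes in the 4 comparisons and the interaction (horizontal axes, log2 scale), with 95% intervals as lines. Filled points passed both the adjusted p and the fold threshold (dotted lines at 0.25 on either side of 0), and open points did not. Ccnd1 at −1.47 in Inf against control is the farthest from 0.

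In the comparison of Inf with control, Ccnd1 had the largest fold change of the D cyclins. Ccnd1, a mitogen-induced D cyclin, was measured at 664, 691, and 710.0 CPM in the control libraries and at 242, 265, and 236 CPM in the Inf libraries. The groups were far apart, with means of 688 ± 23.4 CPM in control and 248 ± 15.2 CPM in Inf (SD, n = 3). The log2 fold change was −1.47 (SE 0.045), or 2.78-fold lower, with an adjusted p of 3.9e-22 by edgeR's quasi-likelihood test. IL-4/13 alone left the level near control, at 704, 708, and 711 CPM. The 95% interval of that log2 difference ran from −0.05 to 0.13 (adjusted p = 0.67, edgeR's quasi-likelihood test), and the ranges of the groups overlapped.

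With IL-4/13 added to Inf, Ccnd1 was higher than with Inf alone but still below control. The 3 libraries held 353, 359, and 332 CPM, all above every Inf library and below every control library. The rise over Inf was 1.40-fold (log2 0.49, SE 0.044, adjusted p = 1e-09 by edgeR's quasi-likelihood test). Against control, the level was 1.98-fold lower (log2 −0.98, SE 0.044, adjusted p = 6.4e-18, same test). Both comparisons use the IL-4/13 + Inf libraries, and the first shares its Inf libraries with the comparison of Inf against control. The response to IL-4/13 therefore was tested directly as an interaction, the log2 response with Inf minus that without. It was 0.45 for Ccnd1 (95% interval 0.32 to 0.58, adjusted p = 2e-05, edgeR's quasi-likelihood test).

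Ccnd2 also fell with Inf, by less than Ccnd1. Control libraries held 629, 643, and 675 CPM of Ccnd2, and Inf libraries held 432, 432, and 395 CPM. The groups did not overlap, and the fall was 1.55-fold (log2 −0.63, SE 0.043, adjusted p = 1.9e-13 by edgeR's quasi-likelihood test). Under IL-4/13 alone the level was 609, 580, and 574 CPM, below every control library. That difference (log2 −0.14, adjusted p = 0.032, edgeR's quasi-likelihood test) was short of the fold threshold. In IL-4/13 + Inf the libraries held 460.0, 479, and 458 CPM, above every Inf library. The difference from Inf (log2 0.15, adjusted p = 0.010, edgeR's quasi-likelihood test) was again short of that threshold. Because IL-4/13 went with a lower level without Inf and a higher level with it, the interaction was 0.29 (95% interval 0.17 to 0.42, adjusted p = 0.0029, same test). Against control, Ccnd2 was lower in IL-4/13 + Inf by 1.39-fold (log2 −0.48, adjusted p = 9.2e-11, edgeR's quasi-likelihood test).

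Ccnd3 differed from the other D cyclins in direction. It was measured at 154, 156, and 161 CPM in control and at 179, 167, and 181 CPM in Inf. Every Inf library was above every control library, yet the difference (log2 0.16, SE 0.050, adjusted p = 0.0089 by edgeR's quasi-likelihood test) did not reach the fold threshold. IL-4/13 libraries ranged from 148 to 171 CPM and overlapped control. IL-4/13 + Inf libraries ranged from 177 to 185 CPM and overlapped Inf, with a log2 difference of 0.04 (95% interval −0.06 to 0.14, adjusted p = 0.65, edgeR's quasi-likelihood test). The interaction was 0.00 (95% interval −0.14 to 0.15).

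**Figure D2:**
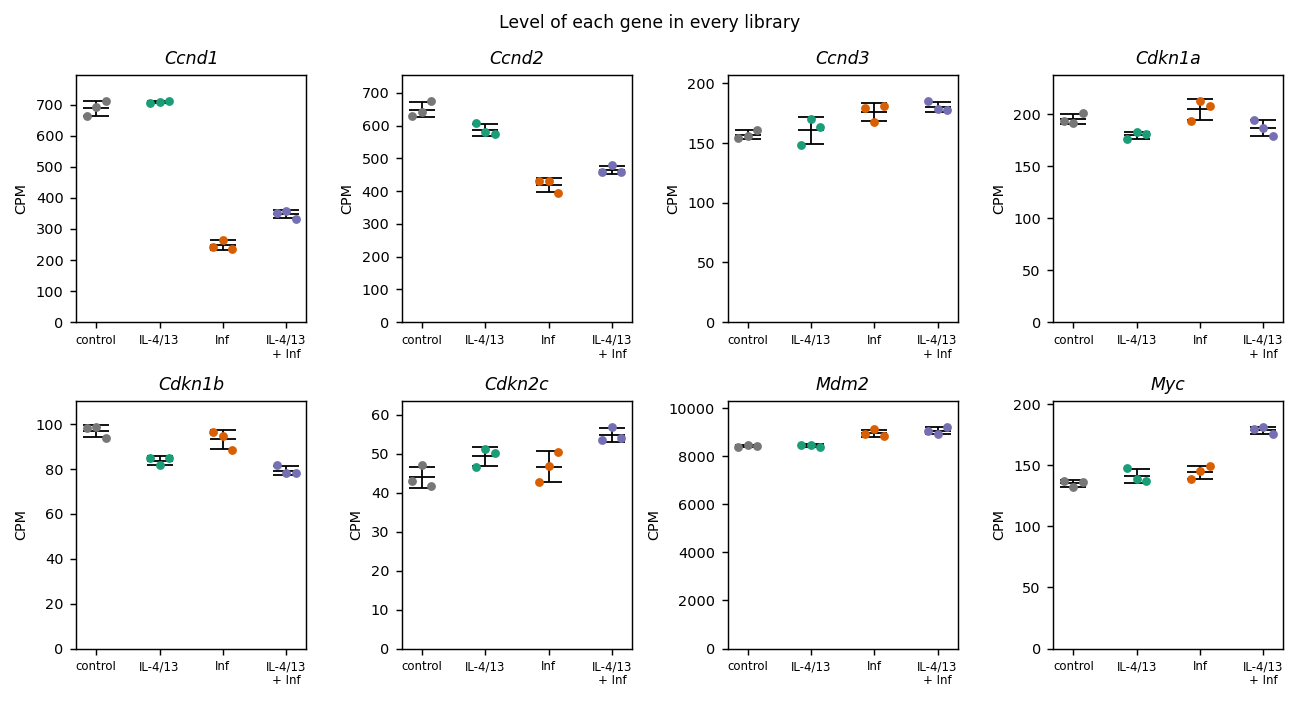
CPM of the 8 genes with counts in each of the 12 libraries (vertical axes from 0, one panel per gene). Points are libraries, and the black bars are the mean and SD of 3 libraries. Ccnd1 drops from 664 to 710.0 CPM in control to 236 to 265 CPM in Inf, and Myc stands above the other conditions at 176 to 181 CPM in IL-4/13 + Inf.

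On a per-length scale (CPM per kb of all annotated exons of a gene, merged), the makeup of the D cyclin pool in Inf was unlike that in control. The summed level of the 3 genes was 233 ± 7.81 CPM per kb in control, 231 ± 0.41 with IL-4/13, 117 ± 4.26 with Inf, and 144 ± 4.14 with both (SD, n = 3). Ccnd1 supplied 62.6% to 63.04% of that sum in the control libraries and 43.7% to 46.4% in the Inf libraries. In IL-4/13 + Inf its share was 50.6% to 51.7%, between these ranges and overlapping neither. Ccnd3, the least abundant, supplied 7.62% to 7.79% in control and 15.7% to 18.3% in Inf. These shares describe the levels given above and were not tested separately. The merged exons have 9409 bases for Ccnd2 and 8775 for Ccnd3, whereas their longest transcripts have 6330 and 3858. The size of each share, and comparisons between genes on this scale, therefore depend on the length used.

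**Figure D3:**
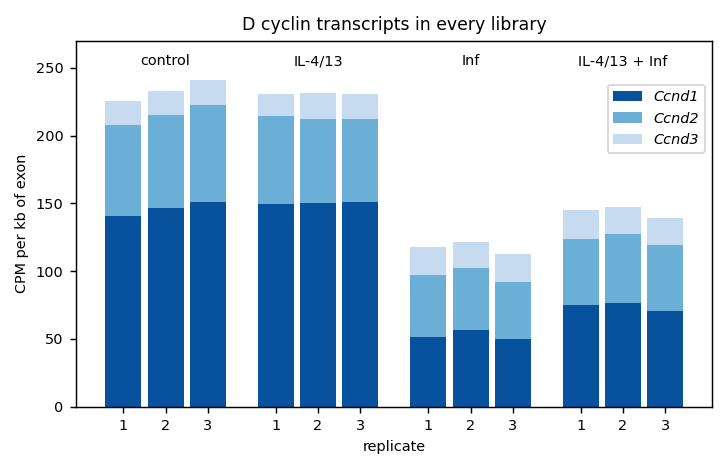
Stacked bars of the per-length level (CPM per kb of exon, axis from 0) of the 3 D cyclin transcripts in each library, grouped by condition. The bars total 225 to 241 in control and 113 to 121 in Inf, and most of the loss is in the dark Ccnd1 segment.

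Of the tested CDK inhibitors among the chosen genes, none was called in Inf against control. Other CDK inhibitor genes, named here for their role, were called up, namely Cdkn2a (log2 0.252), Cdkn2b (log2 0.77), and Cdkn2d (log2 0.29). The value of Cdkn2a was barely past the fold threshold. Cdkn1a, which encodes p21 and is a p53 target, was measured at 194, 192, and 201 CPM in control and at 194, 213, and 208 CPM in Inf, so the groups overlapped. The log2 difference was 0.07 (95% interval −0.03 to 0.16, adjusted p = 0.26, edgeR's quasi-likelihood test). The ranges in the other groups were 176 to 183 CPM with IL-4/13 and 180 to 194 CPM with IL-4/13 + Inf. The latter overlapped Inf and gave a log2 difference of −0.13 (adjusted p = 0.035, edgeR's quasi-likelihood test), short of the fold threshold.

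Cdkn1b, which encodes p27, was lower in both conditions with IL-4/13. The control libraries held 98.2, 98.6, and 94.0 CPM and the IL-4/13 libraries 84.98, 81.6, and 84.8 CPM. The Inf libraries held 96.5, 94.9, and 88.6 CPM and the IL-4/13 + Inf libraries 81.7, 78.0, and 78.2 CPM. Neither pair of groups overlapped. The log2 difference was −0.21 (SE 0.051, adjusted p = 0.0074) without Inf and −0.23 (SE 0.051, adjusted p = 9.9e-04) with Inf by edgeR's quasi-likelihood test, both just short of the fold threshold. The interaction was −0.02 (95% interval −0.17 to 0.12), so no difference between these responses was detected. Against control, IL-4/13 + Inf passed both criteria, and Cdkn1b fell by 0.29 on the log2 scale (adjusted p = 3.5e-05, edgeR's quasi-likelihood test).

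Cdkn2c, the INK4 member, was the least abundant of the tested genes in CPM in all 4 conditions. Its level was 43.1, 47.0, and 41.7 CPM in control and 46.5, 51.1, and 50.2 CPM with IL-4/13. With Inf it was 42.6, 46.9, and 50.4 CPM, and with IL-4/13 + Inf 53.5, 56.7, and 54.0 CPM. The IL-4/13 + Inf libraries were above all others, while the remaining 3 groups overlapped each other. Cdkn2c rose against control in IL-4/13 + Inf by 1.25-fold (log2 0.32, SE 0.068, adjusted p = 3.5e-04, edgeR's quasi-likelihood test). Against Inf its difference (log2 0.23, SE 0.067, adjusted p = 0.013, same test) was short of the fold threshold. Cdkn1c, which encodes the imprinted inhibitor p57, had 0 counts in all 12 libraries, which allows a level of at most 0.146 to 0.221 CPM (3 counts, per library, covering counting error only).

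On the per-length scale Cdkn1a, Cdkn1b, and Cdkn2c summed to 92.7 ± 0.46 CPM per kb in control, 87.4 ± 1.56 with IL-4/13, 95.5 ± 3.49 with Inf, and 90.4 ± 2.41 with both (SD, n = 3). The D cyclin sum was far above the sum of these inhibitors in control, and in Inf the gap between the sums was much smaller. Other CDK inhibitor genes are left out of this sum. Among them, Cdkn2a was at a mean of 438 CPM in control and 521 CPM in Inf, and Cdkn2b at 90.4 and 154 CPM. Within the sum of Cdkn1a, Cdkn1b, and Cdkn2c, Cdkn1a supplied the most in every condition, from 57.5% to 61.03% per library. The share of Cdkn2c was 16.7% to 18.8% in control and 21.5% to 23.3% in IL-4/13 + Inf.

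Mdm2 was among the most abundant transcripts in these cells and differed little between conditions. Its level was 8372, 8462, and 8445 CPM in control and 8483, 8482, and 8385 CPM with IL-4/13. With Inf it was 8911, 9120, and 8835 CPM, and with IL-4/13 + Inf 9068, 8915, and 9201 CPM. The 6 libraries with Inf were all above the 6 without, and IL-4/13 did not separate either pair of groups. The difference of Inf from control (log2 0.09, SE 0.030, adjusted p = 0.020 by edgeR's quasi-likelihood test) was small and short of the fold threshold. For IL-4/13 against control the 95% interval of the log2 difference was −0.06 to 0.07, and for IL-4/13 + Inf against Inf it was −0.05 to 0.08.

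The Mdm2 row took 0.843% to 0.912% of all counts and ranked first or second by CPM among tested genes in every library. Its mean over the libraries was 8723 CPM, next to 9020 CPM for the elongation factor Eef1a1 and above 4277 CPM for the collagen gene Col1a2. Compared per length, Mdm2 held 1658 ± 9.39 CPM per kb in control, beside 146 ± 4.96 CPM per kb for Ccnd1, the next of the 8 (SD, n = 3). Its neighbors on the chromosome were examined after this level had been seen. Slc35e3, the next protein-coding gene on the same strand and not overlapping Mdm2 in the GENCODE M21 annotation, was also abundant, at 1701 to 1948 CPM over the 12 libraries and 518 CPM per kb on average, which placed it at the 99.5th percentile of tested genes. The gene on the other side, Cpm, had a mean of 3.45 CPM. The other tested neighbors had means of at most 253 CPM, that of Rap1b, with Nup107 at 124 CPM and Yeats4 at 42.5 CPM.

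**Figure D4:**
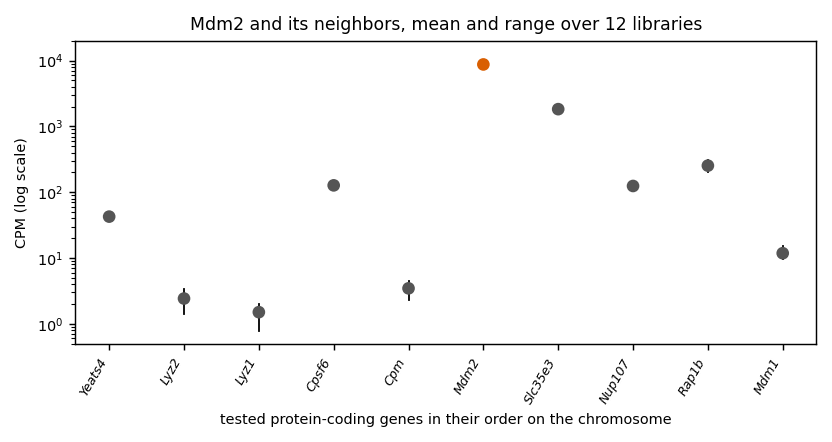
CPM on a log scale of Mdm2 (orange) and the tested protein-coding genes around it, in chromosomal order without distances. Points are means over 12 libraries and lines run from the lowest to the highest library, mostly hidden by the points. Mdm2 at 8723 CPM and Slc35e3 at 1825 CPM stand above the rest, the highest of which is Rap1b at 253 CPM.

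Myc was highest where both kinds of cytokine were present. It was measured at 137, 132, and 136 CPM in control and 148, 139, and 137 CPM with IL-4/13. With Inf it was at 139, 145, and 149 CPM, and with IL-4/13 + Inf at 179, 181, and 176 CPM. All 3 IL-4/13 + Inf libraries were above all 9 others. The rise over Inf was 1.24-fold (log2 0.31, SE 0.046, adjusted p = 6.5e-06) and over control 1.32-fold (log2 0.40, SE 0.046, adjusted p = 1.7e-08) under edgeR's quasi-likelihood test. Neither IL-4/13 alone (log2 0.06, adjusted p = 0.47) nor Inf alone (log2 0.09, adjusted p = 0.10) passed that test. The libraries of both groups were nevertheless all above the control libraries. The lowest were at 137.2 CPM with IL-4/13 and 138.5 CPM with Inf, and the highest control library was at 137.0 CPM. The interaction for Myc was 0.24 (95% interval 0.11 to 0.38, adjusted p = 0.029, edgeR's quasi-likelihood test), which passed on the adjusted p but was just under the fold threshold. With a library left out, the adjusted p of this interaction ran from 0.0051 to 0.11 in the same test.

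The order of the genes on the per-length scale changed with condition below Mdm2, which was first in all 4. Places in this order depend on the exon length used for each gene. In control Ccnd1 came second at 146 CPM per kb, followed by Ccnd2 at 68.97, Cdkn1a at 55.1, and Myc at 49.8, and no adjacent genes in this order overlapped between libraries. In Inf, Cdkn1a (57.6 CPM per kb), Myc (53.1), and Ccnd1 (52.7) followed Mdm2, and neighbors in this order overlapped. Ccnd2 came next at 44.6 CPM per kb, above Cdkn1b at 20.5 and Ccnd3 at 20.03, which overlapped each other. In IL-4/13 + Inf, Ccnd1 was second again at 73.9 CPM per kb, above Myc at 65.7, with no overlap between them.

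The genes with the most similar profiles were sought by the root mean square difference of mean-centered log2 CPM over the 12 libraries among 10917 genes with a mean of at least 5 CPM. For Ccnd1 the closest were Efnb2, an ephrin ligand (0.099), and Ces2g, a carboxylesterase (0.102), where Ccnd1 itself varied by 0.650 about its own mean. For Ccnd2 they were Aars1, an alanyl-tRNA synthetase (0.041), and Ermp1 (0.048), against 0.256 for Ccnd2 itself. For Myc they were Spty2d1 (0.045) and Clic1 (0.053), against 0.159 for Myc. Clic1 was also one of the closest to Cdkn2c (0.065, against 0.137), together with Esf1, a nucleolar protein gene (0.062). For Cdkn1b the closest were Kctd10 (0.040) and the lysosomal protease gene Ctsd (0.042), against 0.122. For Ccnd3, Cdkn1a, and Mdm2 the member's own spread was at most 0.100, and the closest genes, Atp6v0c-ps2 and Surf4, Ctdsp1 and Mapk7, and Hsp90ab1 and Ilrun respectively, are given as names only. The choice by likeness makes these values a description.

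The partners and targets of the D cyclins in G1 moved in both directions with Inf. Over all tested genes, the shares called up and down were 16.3% and 15.3% in Inf against control, 7.55% and 7.00% in IL-4/13 + Inf against Inf, 2.78% and 2.57% in IL-4/13 against control, 13.4% and 11.5% in IL-4/13 + Inf against control, and 1.52% and 1.59% in the interaction, and the list counts that follow stand beside these. In a list of 25 genes of the G1/S machinery, all tested, 5 rose and 12 fell in Inf against control, with a median log2 fold change of −0.26, and 7 rose and 0 fell in IL-4/13 + Inf against Inf, with a median of 0.12. Without Inf replicate 1 the 7 became 4, and without Inf replicate 3 the 0 became 1. Over the fits tried, the rises in Inf against control numbered 4 to 5 and the falls 9 to 13. The largest rise with Inf was that of Cdkn2b, the INK4 inhibitor p15, from 90.4 ± 3.91 CPM to 154 ± 10.98 CPM (SD, n = 3). Its log2 fold change was 0.77 (adjusted p = 4.2e-13, edgeR's quasi-likelihood test). Rbl2, a retinoblastoma family member, also rose (log2 0.43). The largest falls were those of E2f8, an atypical E2F that represses E2F targets (log2 −0.80), and Skp2, which targets p27 for degradation (log2 −0.54).

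With IL-4/13 added to Inf, E2f8 rose from 18.1 ± 1.495 CPM to 26.6 ± 1.47 CPM (SD, n = 3), and E2f2 from 4.53 ± 0.74 CPM to 6.51 ± 0.48 CPM (SD, n = 3). The CDK partners of the D cyclins were named for their role, after their values had been seen. Cdk4 was at 677 ± 8.53 CPM in control and 621 ± 44.1 CPM in Inf (SD, n = 3), with overlapping libraries. Its log2 difference of −0.13 (adjusted p = 0.019, edgeR's quasi-likelihood test) was short of the fold threshold, and it was not called. Cdk6 rose with IL-4/13 both without Inf (log2 0.30, adjusted p = 1.3e-04) and with Inf (log2 0.37, adjusted p = 1.4e-06) under edgeR's quasi-likelihood test. In the other comparisons at most 4 genes of the list were called in either direction under any of the fits tried.

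Around Mdm2, genes of the p53 circuit and its targets were split in direction. Of 22 listed genes 20 were tested, and Pmaip1 and Perp had at most 1 count in any library. With Inf 5 rose and 6 fell, with a median log2 fold change of −0.15. Over the fits tried, these rises numbered 4 to 6 and the falls 5 to 7. Fas, a death receptor, rose from 11.5 ± 0.42 CPM to 124 ± 7.50 CPM (SD, n = 3; log2 3.42, adjusted p = 7.2e-27, edgeR's quasi-likelihood test), and Gadd45a, a stress-induced growth arrest gene, rose by 0.75 on the log2 scale. Phlda3, which restrains Akt, and the nuclease gene Aen fell by 0.53 and 0.50 on that scale. Trp53 itself, named for its role, was at 263 ± 5.25 CPM in control and 264 ± 11.8 CPM in Inf (SD, n = 3).

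With IL-4/13 added to Inf, 4 genes of the p53 list rose and 2 fell (median log2 0.06), and without Inf replicate 1 only 2 rose. Gadd45a and Trp53inp1 fell by 0.53 and 0.45 on the log2 scale, while Aen and Rrm2b, a ribonucleotide reductase subunit, rose by 0.38 and 0.34. In each of the other comparisons at most 4 of the 20 tested genes were called in either direction under any of the fits tried.

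The partners of Myc include Max, which Myc needs to bind DNA, and the Mxd proteins, which compete for Max and repress Myc-activated genes. Of 12 listed genes 10 were tested, while Mycn and Mycl had at most 8 and 12 counts in any library. With Inf 3 rose and 1 fell (3 to 4 rises over the fits tried). Mxd1 rose from 7.63 ± 1.60 CPM to 29.2 ± 1.75 CPM (SD, n = 3; log2 1.93, adjusted p = 9e-15, edgeR's quasi-likelihood test) and Mxi1 by 1.00 on the log2 scale, whereas Mxd3 fell by 0.57. Max, named for its role, was at 66.7 ± 2.82 CPM in control and 66.1 ± 3.45 CPM in Inf (SD, n = 3).

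Against Inf alone, IL-4/13 + Inf gave 2 rises and 4 falls in the Myc network, and 1 rise without Inf replicate 2 or without IL-4/13 + Inf replicate 1. Mxd1 fell from 29.2 to 20.5 CPM (log2 −0.51, adjusted p = 3.6e-04, edgeR's quasi-likelihood test) and Mxd4 by 0.39 on the log2 scale, while Mxd3 rose by 0.60 and Mlx, a Max-like partner, by 0.26. Myc and the Mxd1 repressor gene were thus called in opposite directions in this comparison. At most 3 of the 10 tested genes were called in either direction in the other comparisons under any of the fits tried.

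Known MYC target genes, most of them for ribosome production, were mostly lower with Inf. Whether Myc had a part in any change of this list was not tested. Of 20 listed genes, all tested, 1 rose and 17 fell in Inf against control (median log2 −0.39, where the median of all tested genes was 0.01). Srm, the spermidine synthase gene, fell from 146 ± 6.86 CPM to 95.5 ± 3.00 CPM (SD, n = 3; log2 −0.61, adjusted p = 9.2e-12, edgeR's quasi-likelihood test), and Rrp9, which processes ribosomal RNA, fell by 0.61 on the log2 scale. The gene that rose was Ldha, lactate dehydrogenase A (log2 0.64). In IL-4/13 + Inf against Inf, 16 rose and 0 fell (median log2 0.39). Over the fits tried, the falls with Inf numbered 15 to 17 and the rises with IL-4/13 added 15 to 18. Ddx21, an RNA helicase for ribosome production, rose from 144 ± 2.67 CPM to 209.7 ± 5.14 CPM (SD, n = 3; log2 0.54, adjusted p = 2.6e-11, edgeR's quasi-likelihood test).

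These 2 comparisons share the Inf libraries, so their values are given side by side and not related to each other. In the comparison of IL-4/13 + Inf with control, which does not use the Inf libraries, 1 rose and 0 fell (median log2 −0.01). Without control replicate 2 or without IL-4/13 + Inf replicate 1, 2 rose. IL-4/13 against control gave 0 up and 0 down (median log2 0.12) in both edgeR and DESeq2, and 1 up without control replicate 3 or without IL-4/13 replicate 1. Of its genes, 4 (Ncl, Nop56, Ddx21, and Nolc1) passed on edgeR's adjusted p with log2 values of 0.17 to 0.24, short of the fold threshold, and 10 were higher at an unadjusted p below 0.05. The interaction gave 9 up and 0 down (median log2 0.27), with Rrp9 at 0.53 and Srm at 0.40.

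A list of 14 proliferation genes, which are expressed in S phase or mitosis, gave 1 rise and 12 falls in Inf against control (median log2 −0.33). Over the fits tried, the falls numbered 10 to 12. Ccna2, cyclin A2, fell from 245 ± 11.02 CPM to 157 ± 7.63 CPM (SD, n = 3; log2 −0.64, adjusted p = 1.7e-12, edgeR's quasi-likelihood test), and Mcm2, a subunit of the replicative helicase, fell by 0.58 on the log2 scale. Tyms, thymidylate synthase, was the exception and rose (log2 0.65). In IL-4/13 + Inf against Inf 10 rose and 0 fell (median log2 0.28), led by Rrm2, a ribonucleotide reductase subunit (log2 0.46), and the helicase subunit Mcm6 (log2 0.41). The rises numbered 8 to 11 over the fits tried, with 8 without Inf replicate 1. IL-4/13 against control gave 2 up and 0 down (1 up without control replicate 1 or 3, and 3 up without control replicate 2). IL-4/13 + Inf against control gave 1 up and 3 down, and the interaction 2 up and 0 down (2 to 3 up over the fits tried).

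**Figure D5:**
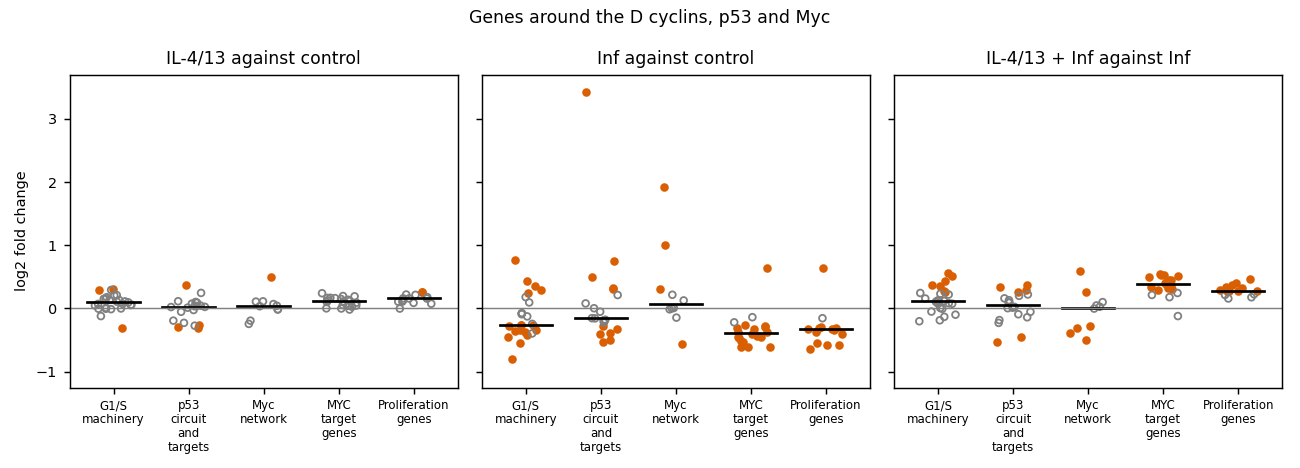
Log2 fold changes (vertical axis) of the tested genes of 5 lists in 3 comparisons. Each point is a gene, filled where it passed both criteria and open where it did not, and bars are medians. The MYC target bar is at −0.39 with Inf and at 0.39 with IL-4/13 added to Inf, and the highest point is Fas at 3.42.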

How the data were processed

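RNA was purified from 3T3-L1 cells, and stranded poly(A) libraries were made. The authors deposited raw counts per gene for 12 libraries, without normalization; the submitters' processing notes name STAR, featureCounts, and GRCm39. The annotation and the handling of shared reads are not given in the sources used here. The libraries carry one batch label.

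Genes were filtered with filterByExpr (minimum count 10, minimum total 15). Counts were scaled with TMM factors (0.986 to 1.02) and fitted with edgeR 4.0.16 in R 4.3.3 by robust quasi-likelihood, with condition as the only term. Benjamini-Hochberg adjustment covered the 14810 genes of each contrast. A call required both an adjusted p under 0.05 and an absolute log2 fold change over 0.25, which are the study's thresholds for pseudobulk DEGs. The methods name DESeq2, which was an alternative here (version 1.42.0). Per-length levels used the merged length of all annotated exons of a gene in GENCODE M21 (GRCm38). That annotation may differ from the one counted. The models were tested on simulated counts. Other alternatives were the size factors, the filter, the libraries fitted, a replicate block, each library left out, and the thresholds.

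The genes and lists were chosen with earlier results of these data known. From each list, up to 2 rises and 2 falls were named in the contrasts of Inf with control and of IL-4/13 + Inf with Inf, namely the largest called ones without overlap whose mean reached 5 CPM in 1 group. For each tested member, the 2 genes most like it were named. Genes named outside the rule are marked, except those named only as neighbors, markers, or reference levels.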

Additional observations from a re-analysis of the deposited data

Results flagged for a closer look

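For 2 of the 8 tested genes, the response to IL-4/13 differed between cells with and without Inf by a test of the difference itself. For Ccnd1 the log2 response with Inf minus that without was 0.45, with means of 688 and 708 CPM without Inf and 248 and 348 CPM with Inf. For Ccnd2 it was 0.29, with means of 649 and 588 CPM without Inf and 419.6 and 466 CPM with Inf. The direction of its IL-4/13 difference thus also changed, but it was not called without Inf or with it. With a library left out, the adjusted p of that difference reached 0.19 without Inf and 0.085 with Inf (edgeR's quasi-likelihood test). No cause of the Ccnd1 or the Ccnd2 interaction was tested.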

How the results depend on the processing

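The 8 tested genes had 752 log2 values under another tool, scaling, filter, or set of libraries, at the same thresholds. Of these, 744 kept their side of the thresholds, 8 gained a call, and 0 lost or reversed a call. Some values near 0 that were not called changed sign, such as Ccnd3 in IL-4/13 against control (log2 −0.01 to 0.09 with a library left out). The gains were Cdkn1b in IL-4/13 + Inf against Inf (log2 −0.25 with a filter at a mean of 50 counts, −0.27 without Inf replicate 3, and −0.26 without IL-4/13 + Inf replicate 1), Cdkn2c in that comparison (0.29 without Inf replicate 3), and the interaction of Myc (0.25 to 0.27 without control replicate 2, IL-4/13 replicate 1, Inf replicate 3, or IL-4/13 + Inf replicate 3). The count of genes called down in IL-4/13 + Inf against Inf was therefore 0 to 1 over the fits that left out a library, and 1 with the filter at a mean of 50 counts. The gains of Cdkn2c and of the Myc interaction likewise each raised the count called up by 1 in the fits named. With no fold threshold, 2 were called down in IL-4/13 against control, 2 up in Inf against control, 4 up and 2 down in IL-4/13 + Inf against Inf, and 4 up in IL-4/13 + Inf against control. Several results on the adjusted p alone did not hold in every fit that left out a library. By edgeR's quasi-likelihood test, the adjusted p then reached 0.19 for Ccnd2 and 0.054 for Cdkn1b in IL-4/13 against control. It reached 0.054 for Mdm2 in Inf against control and 0.11 for the Myc interaction. In IL-4/13 + Inf against Inf it reached 0.17 for Cdkn1a and 0.085 for Ccnd2 and Cdkn2c. With a threshold of 0.5, 0 were called up in IL-4/13 + Inf against Inf, 0 up and 1 down in IL-4/13 + Inf against control, and 0 up in the interaction, since all these values except that of Ccnd1 against control lie nearer 0. Replicate numbers did not pair the libraries (correlations of −0.15 to 0.05 over 18 same-numbered pairs), and a replicate block left the counts of called genes among the 8 as they were, such as 2 up in IL-4/13 + Inf against Inf. The block moved counts of the 5 gene lists by at most 1. With 3 libraries per group, small differences such as that of Mdm2 rest on few libraries.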
